A study of Homo sapiens with 4 samples.

Results

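The genes described here are 10 regulators and markers of the epithelial-mesenchymal transition (EMT), taken by name with every probe that could be tied to them: SNAI1, SNAI2, TWIST1, TWIST2, ZEB1, ZEB2, VIM, FN1, GRHL2 and OVOL1. The arrays hold probes for 18699 genes that could be named, and these 10 were represented by 14 of 47323 probes. Of these, 9 probes of 5 genes were among the 22123 probes detected in these cells, and 5 genes had only a probe that was not above background on any array.

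Expression was measured in MDA-231 (MDA-MB-231) cells, an established line from human breast cancer known for a mesenchymal, claudin-low character. Cells received pCMV-TARBP2, a plasmid with the RNA-binding protein gene TARBP2 behind the CMV promoter, or the control plasmid pCMV-GFP, and total RNA was taken 48 hours later. There were 2 arrays of each plasmid, 1 cell line and no other treatment. The transfection was transient, and the labels do not give the share of cells that took up a plasmid. The groups follow the sample labels, which name pCMV-GFP as the control, while the design text speaks of mock transfection.

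In EMT, epithelial cells lose their junctions and polarity and gain motility. SNAI1, SNAI2, ZEB1 and ZEB2 are zinc finger repressors that bind E-box letters in promoters of epithelial genes such as CDH1, and TWIST1 and TWIST2 are basic helix-loop-helix factors that act in the same programme. GRHL2 and OVOL1 maintain the epithelial state and oppose ZEB1. VIM encodes the intermediate filament vimentin and FN1 the matrix protein fibronectin, which serve as mesenchymal markers and as components of the altered cytoskeleton and matrix. Breast cancer lines of the claudin-low kind are known for high vimentin and for loss of miR-200.

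A TARBP2 probe (ILMN_2310253) read 15.11 and 15.12 on the log2 scale on TARBP2 arrays, against 7.26 and 6.97 on GFP arrays, a 257-fold difference. A second TARBP2 probe (ILMN_1729767) did not pass, at a log2 change of -0.22 (limma, adjusted p = 0.0722). The median raw intensity was 75.5 and 74.5 on TARBP2 arrays, against 78.5 and 78.7 on GFP arrays, and each array detected 44.1% to 45.9% of its probes. All 6 markers of MDA-231 cells (VIM, CD44, AXL, MSN, CAV1 and PLAU) were detected on all 4 arrays, and AXL and MSN fell, by 0.52 ± 0.07 (adjusted p = 0.00741) and 0.45 ± 0.08 (adjusted p = 0.0117) on the log2 scale. Of 8 luminal epithelial markers with a named probe, the keratin genes KRT8 and KRT19 were detected on all 4 arrays, CDH1 and KRT18 on the GFP arrays, CLDN3 on 1 TARBP2 array, and ESR1, PGR and ESRP1 on none.

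Changes are given below as the TARBP2 mean minus the GFP mean of normalised log2 intensities, with the standard error of limma's fit, 2 arrays per group. Unless another setting is named, the p-values come from limma's moderated test, adjusted by the Benjamini-Hochberg method over all 22123 detected probes. Calls are at an adjusted p under 0.05. The labels do not say whether replicates were separate cultures, so the tests rest on the spread between these arrays alone, and that spread may be technical. In RNA pooled from many cells, fewer cells expressing a gene and less RNA per cell cannot be told apart.

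Among the members, SNAI2 RNA was higher and ZEB2 RNA lower in TARBP2-transfected cells, 1 of 2 VIM probes was lower, and ZEB1 and FN1 did not pass the test. Of the 9 detected member probes, 4 passed, beside 40.3% of all detected probes. The 2 that rose stand beside 20.5% of detected probes that rose, and the 2 that fell beside 19.8% that fell. The groups did not overlap for 6 of the 9 probes, beside 71.7% of all detected probes. Every detected member probe was detected on all 4 arrays, so none entered the test through the brighter group alone. No member probe reached an absolute log2 change of 1 (0 of 9), beside 6.74% of all detected probes. The shares called and the shares without overlap are close to those of the array as a whole.

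**Figure D1:**
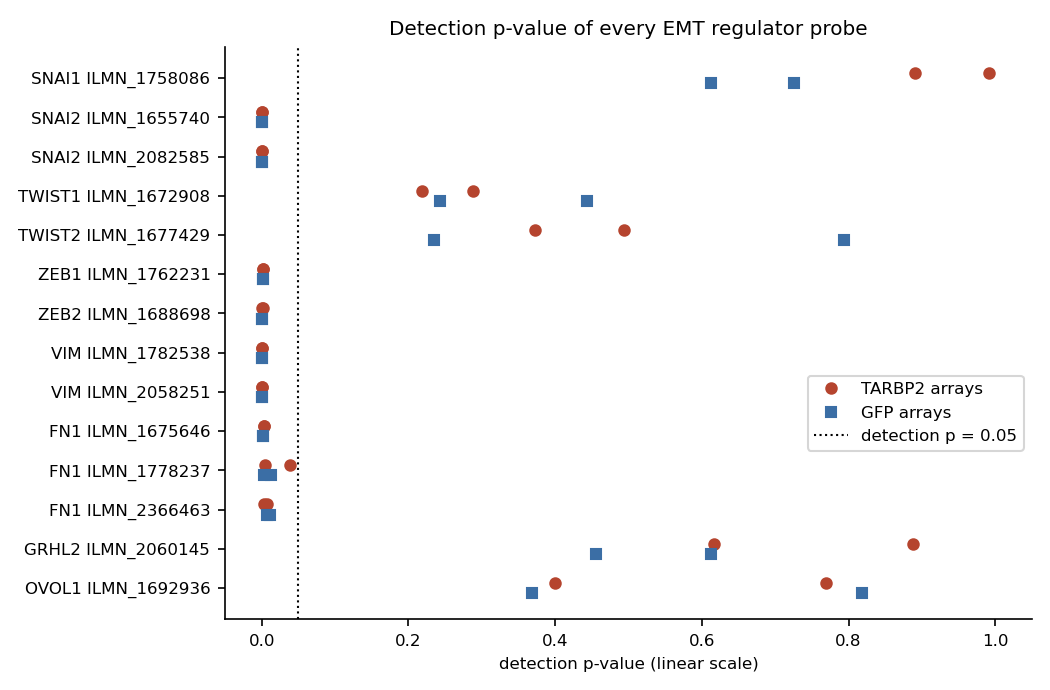
Detection p-value (linear axis, 0 to 1) of each of the 14 member probes on each array, with TARBP2 arrays as circles above GFP arrays as squares and a dotted line at 0.05. The probes of SNAI1, TWIST1, TWIST2, GRHL2 and OVOL1 lie at 0.219 or higher on all 4 arrays, and the other 9 probes at 0.039 or lower.

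The member with the greatest change was SNAI2, the gene of the repressor Slug. Its probe ILMN_2082585 read 12.44 and 12.36 on the log2 scale on TARBP2 arrays, against 11.71 and 11.75 on GFP arrays. The log2 change was 0.67 ± 0.08, or 1.59-fold higher (adjusted p = 0.00426). Its other probe, ILMN_1655740, read 11.30 and 11.15 on TARBP2 arrays, against 10.33 and 10.49 on GFP arrays. Here the log2 change was 0.82 ± 0.10, or 1.76-fold higher (adjusted p = 0.00505). On both probes both TARBP2 arrays lay above both GFP arrays. Of all detected probes, 84.8% had a smaller absolute change than ILMN_2082585 and 89.7% a smaller one than ILMN_1655740. The authors' deposited table gives a single log ratio of 0.7225 for SNAI2, on a transformed scale that is not plain log2. That accession fitted the mean of more than 1 pair of probes, and the pair named here is the one whose probes no other accession claimed.

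SNAI1, the gene of the related repressor Snail, was not above background. Its probe had raw intensities of 52.8 and 44.7 on TARBP2 arrays, against 63.4 and 60.6 on GFP arrays. The detection p was 0.891 and 0.992 on TARBP2 arrays, against 0.613 and 0.726 on GFP arrays. The GFP arrays were both brighter, but each of the 4 values lay within the range of background probes, so no fold is given.

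ZEB2, a zinc finger and homeodomain repressor also called SIP1, was lower in TARBP2-transfected cells. Its probe ILMN_1688698 read 7.12 and 7.11 on the log2 scale on TARBP2 arrays, against 7.61 and 7.55 on GFP arrays. ZEB2 fell by 0.46 ± 0.08 on the log2 scale, or 1.38-fold lower (adjusted p = 0.00979). Both TARBP2 arrays lay below both GFP arrays, and the arrays of each group lay close together. The call did not hold without TARBP2 replicate 1 (adjusted p = 0.0538), without TARBP2 replicate 2 (adjusted p = 0.0554) or without GFP replicate 1 (adjusted p = 0.05), although the change stayed between -0.47 and -0.43 in those fits. In the authors' deposited table ZEB2 has a log ratio of -0.2458 and the class down.

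ZEB1, its close relative, read 6.93 and 6.70 on the log2 scale on TARBP2 arrays, against 6.64 and 6.62 on GFP arrays (ILMN_1762231). Both TARBP2 arrays were higher, 1 of them by little. The log2 change of 0.18 ± 0.10 did not pass (adjusted p = 0.229), and its 95% confidence interval ran from -0.09 to 0.45. The intervals of ZEB1 and of ZEB2, which ran from -0.66 to -0.27, did not overlap, although the difference between these genes was not itself tested. The authors' deposited table gives ZEB1 a log ratio of 0.0752 and the class background. The only deposited classes are down and background, and SNAI2, at 0.7225, is also in background. That class therefore does not mark a gene as unchanged.

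Both ZEB genes are known targets of the miR-200 family and miR-205, small RNAs that pair with their messages through the seed, bases 2 to 8. TARBP2 is known as a partner of Dicer, which cuts miRNA precursors. The mature sequences below (RefSeq), with the seed in capitals, are shown because they are the regulators that ZEB1 and ZEB2 share.
hsa-miR-141-3p: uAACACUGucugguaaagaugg
hsa-miR-200a-3p: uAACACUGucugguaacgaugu
hsa-miR-200b-3p: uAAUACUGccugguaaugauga
hsa-miR-200c-3p: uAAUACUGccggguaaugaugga
hsa-miR-429: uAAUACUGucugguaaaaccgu
hsa-miR-205-5p: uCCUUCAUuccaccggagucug
The first pair share one seed, the next 3 share another that differs at a single base, and miR-205 has its own. The arrays carry probes for the precursors of all 6, and 0 of 6 were above background on any array. Their detection p-values lay between 0.0688 and 0.995. The mature miRNAs were not measured by these arrays.

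VIM, the gene of vimentin, had bright signals on all arrays and small decreases. Probe ILMN_2058251 read 13.88 and 13.86 on the log2 scale on TARBP2 arrays, against 14.12 and 14.12 on GFP arrays. It fell by 0.25 ± 0.07 on the log2 scale, or 1.19-fold lower (adjusted p = 0.0484). Probe ILMN_1782538 read 14.38 and 14.46 on TARBP2 arrays, against 14.60 and 14.59 on GFP arrays. Its log2 change of -0.17 ± 0.08 did not pass (adjusted p = 0.136), with a 95% confidence interval from -0.38 to 0.03. On both probes the TARBP2 arrays lay below the GFP arrays. The call on ILMN_2058251 was lost whenever any 1 array was left out (adjusted p between 0.127 and 0.153). The authors' deposited table gives VIM a log ratio of -0.2124 and the class down, near that class's bound of -0.2.

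FN1, the gene of fibronectin, was dim in these cells, and none of its 3 probes passed. Probe ILMN_1675646 read 6.12 and 6.06 on the log2 scale on TARBP2 arrays, against 5.83 and 6.08 on GFP arrays (log2 change 0.14 ± 0.11, adjusted p = 0.373). Probe ILMN_2366463 read 5.83 and 5.53 on TARBP2 arrays, against 5.42 and 5.54 on GFP arrays (log2 change 0.20 ± 0.13, adjusted p = 0.268). Probe ILMN_1778237 read 5.12 and 5.77 on TARBP2 arrays, against 5.68 and 5.43 on GFP arrays (log2 change -0.11 ± 0.24, adjusted p = 0.747). The groups overlapped on all 3, and the 2 TARBP2 arrays lay farther apart on the last probe than the groups did. Its 95% confidence interval, from -0.73 to 0.51, leaves room for a change in either direction.

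**Figure D2:**
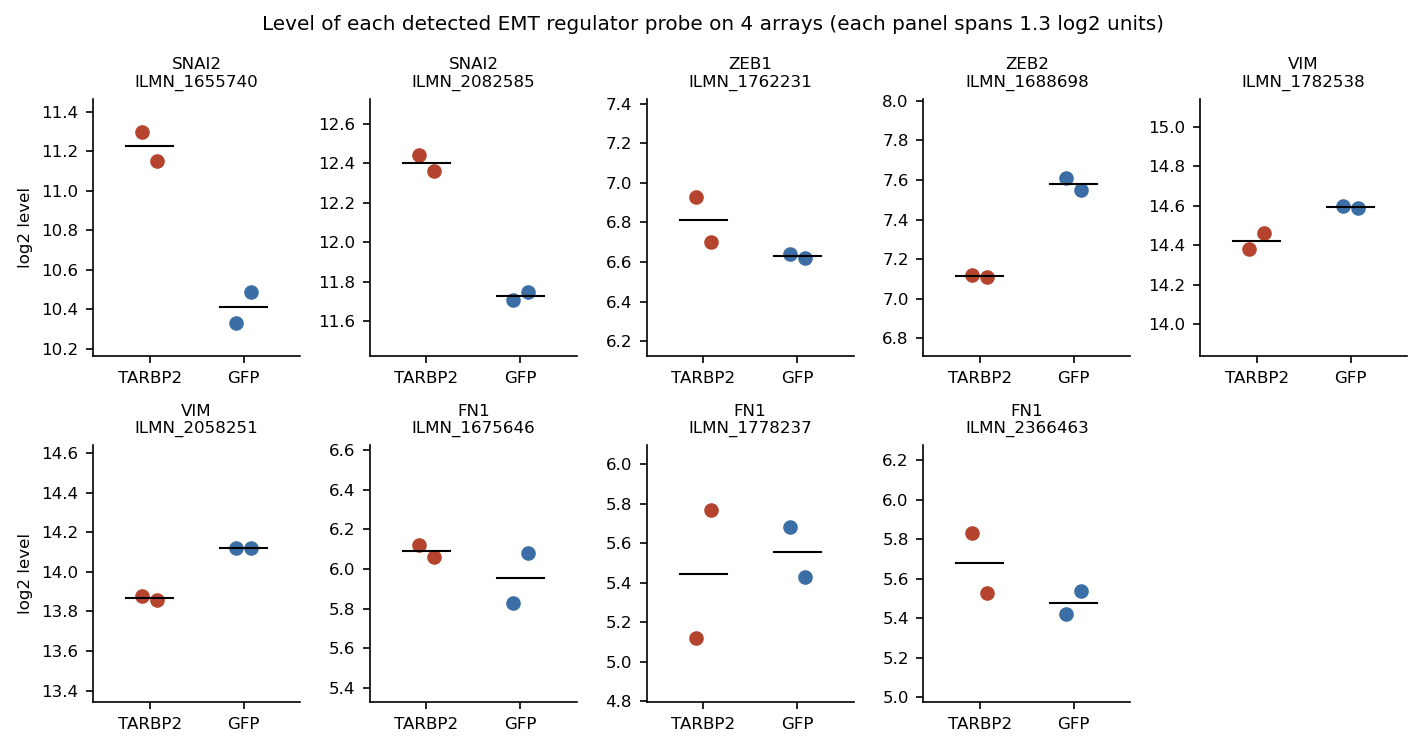
Normalised log2 intensity of the 9 detected member probes on each array, TARBP2 arrays left of GFP arrays, with a bar at each group mean of 2 arrays. SNAI2 probes lie higher and ZEB2 and VIM probes lower on TARBP2 arrays, and the 3 FN1 probes overlap.

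The basic helix-loop-helix factors and the epithelial regulators were not above background on any array. TWIST1 had raw intensities of 69.8 and 67.2 on TARBP2 arrays, against 72.1 and 67.0 on GFP arrays. TWIST2 had 65.5 and 61.4 on TARBP2 arrays, against 72.6 and 59.0 on GFP arrays. GRHL2, a grainyhead factor of epithelia, had 59.9 and 51.7 on TARBP2 arrays, against 66.9 and 63.0 on GFP arrays. OVOL1, a zinc finger factor that maintains the epithelial state, had 56.9 and 64.0 on TARBP2 arrays, against 68.8 and 58.5 on GFP arrays. The groups overlapped on the normalised log2 scale for all 4 genes, and on the raw scale for all but GRHL2. The lowest detection p among them was 0.219. A probe that is not above background bounds its gene's signal and does not show that the gene was silent. On the array as a whole, 47.5% of probes were not above background on any array.

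**Figure D3:**
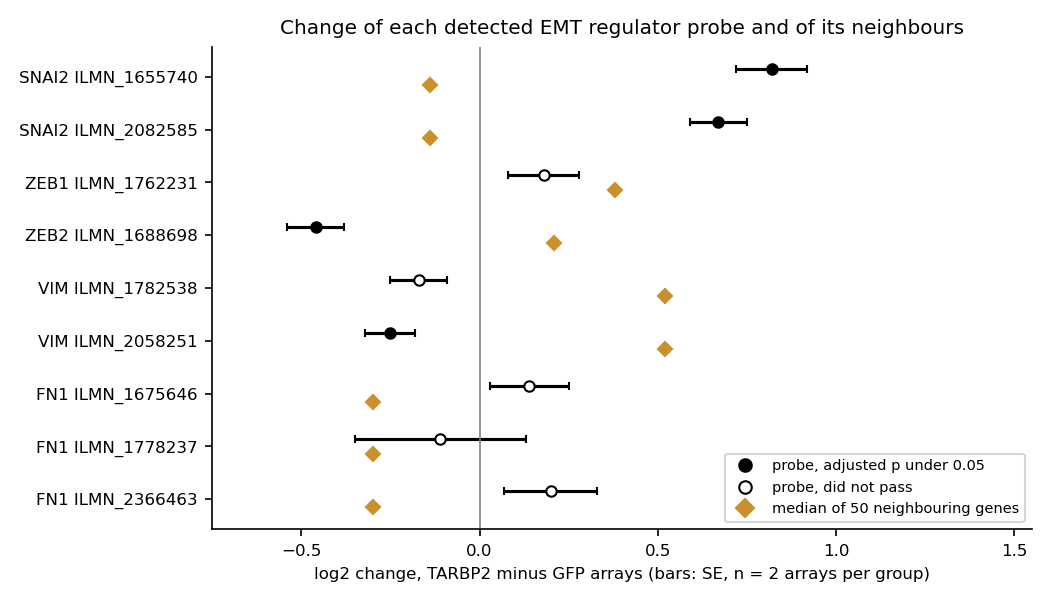
Log2 change (TARBP2 minus GFP) of the 9 detected member probes, filled where called, with bars for the standard error of limma's fit (2 arrays per group). Diamonds show the median change of the 50 neighbouring named genes in chromosome order. Both SNAI2 probes lie above 0 and their neighbours slightly below, while VIM lies below 0 and its neighbours' median at 0.52.

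Genes near VIM and ZEB1 were higher in TARBP2-transfected cells, so the members were also set against their neighbours. For each gene, the median log2 change of 50 named and detected genes around it in chromosome order was taken. These were 25 on each side, except near chromosome ends, whatever their distance in bases. Over 11599 genes the median size of this value was 0.11, and it passed 0.2 in size for 23.1% of genes. Around VIM on chromosome 10 the neighbours' median was 0.52, with 42 of 50 neighbours above 0, and 99.5% of genes had a smaller value in size. Around ZEB1, on the same chromosome, it was 0.38, with 38 of 50 above 0, and 18 of these neighbours are also among those of VIM. Around FN1 on chromosome 2 it was -0.30, with 9 of 50 above 0, while around ZEB2 on the same chromosome it was 0.21, with 33 of 50 above 0. The SNAI2 window on chromosome 8 had a median of -0.14, with 21 of 50 above 0.

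With the neighbours' median taken off, p-values came from a separate fit of named detected probes, adjusted over 14877 probes. They use each probe's own standard error and treat the median as fixed. The spread among neighbours is left out, so these p-values can be too small. The SNAI2 probes then stood at 0.96 and 0.81 on the log2 scale (adjusted p = 0.00167 for ILMN_1655740 and 0.0012 for ILMN_2082585). ZEB2 stood at -0.67 (adjusted p = 0.0019), and both VIM probes passed, at -0.69 and -0.77 (adjusted p = 0.0019 for ILMN_1782538 and 0.00113 for ILMN_2058251). ZEB1 changed sign to -0.20 and did not pass (adjusted p = 0.157). FN1 passed on ILMN_1675646, at 0.44 (adjusted p = 0.0227), and on ILMN_2366463, at 0.50 (adjusted p = 0.0242), but not on ILMN_1778237, at 0.19 (adjusted p = 0.527). So SNAI2 was higher and ZEB2 lower both as measured and relative to their neighbours, whereas the calls on VIM ILMN_1782538 and FN1 differed between these scales. The measured change is the one that describes RNA levels, and why the neighbours moved was not tested.

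**Figure D4:**
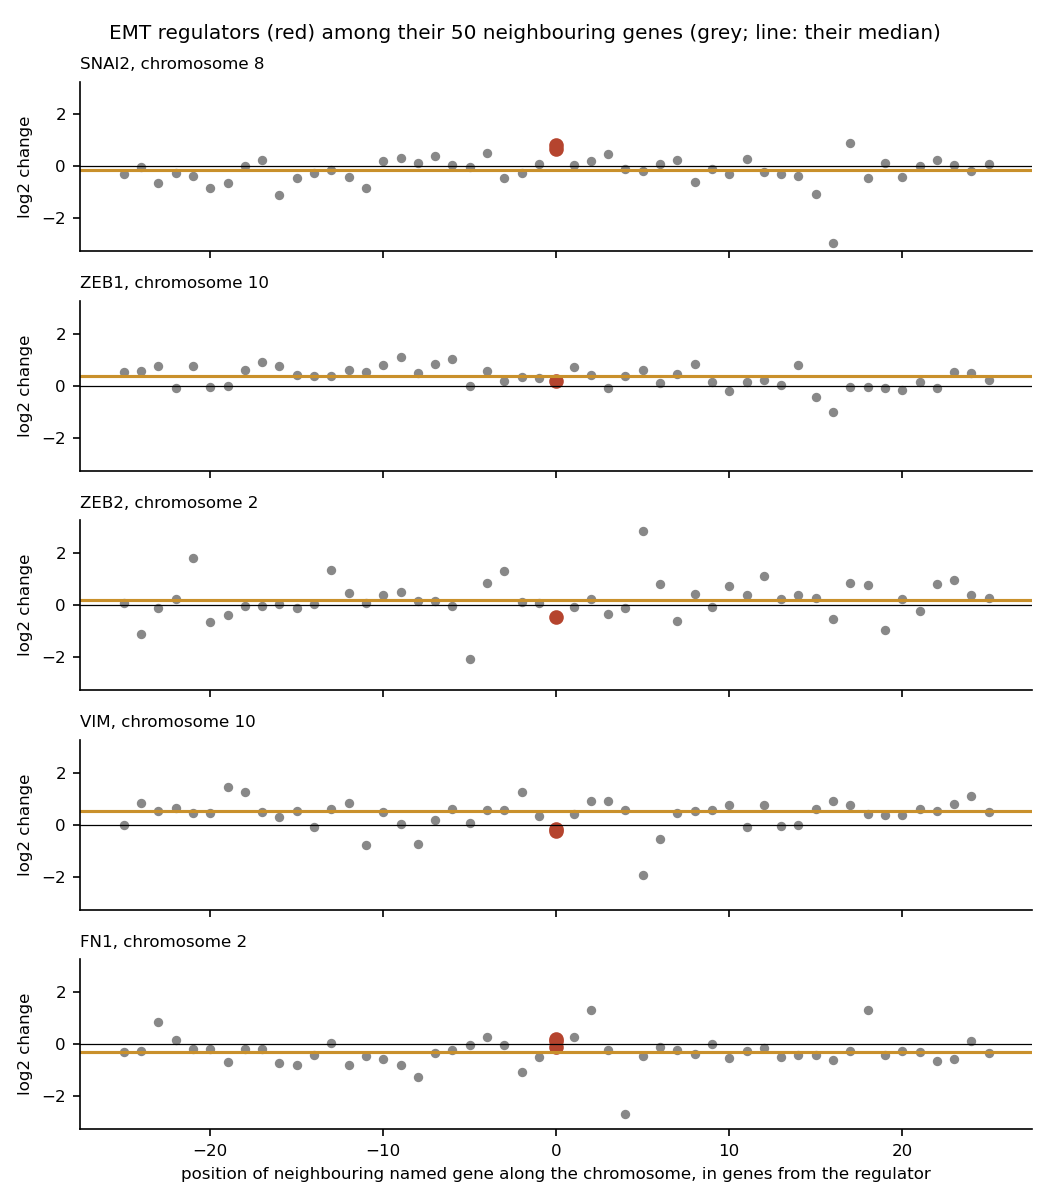
Log2 change (TARBP2 minus GFP) of the neighbouring named genes of SNAI2, ZEB1, ZEB2, VIM and FN1 in chromosome order, with the member's probes marked and a line at the neighbours' median. The line lies at 0.52 around VIM and at -0.30 around FN1.

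The other genes of the pathway were taken from lists by role, each gene by its brightest detected probe, and set against all 11608 named genes with a detected probe. Of those genes 45.4% passed, with 23.4% higher and 22% lower in TARBP2-transfected cells, and the median change was -0.0013 on the log2 scale. In each list the up to 4 passing genes without overlap of smallest p are named, and changes are log2 changes with adjusted p-values from the fit over all detected probes.

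Among 13 other EMT transcription factors, 8 were detected, 1 rose and 1 fell (25% called, median -0.17). FOXQ1, a forkhead factor, read 10.38 and 10.56 on TARBP2 arrays, against 12.10 and 12.15 on GFP arrays, and fell by 1.65 ± 0.09 (adjusted p = 0.000711). SOX9, a factor of progenitor cells that can act together with SNAI2, read 9.14 and 9.25 on TARBP2 arrays, against 8.47 and 8.50 on GFP arrays, and rose by 0.71 ± 0.08 (adjusted p = 0.00421). Of the 7 partners and inhibitors of TWIST proteins, 5 were detected, 1 rose and 1 fell (40% called, median 0.05). TCF12, an E protein that pairs with TWIST factors, rose by 0.59 ± 0.11 (adjusted p = 0.013). ID2, an inhibitor that sequesters E proteins, fell by 1.03 ± 0.13 (adjusted p = 0.0055). It read 5.18 and 5.38 on TARBP2 arrays, near background, against 6.45 and 6.17 on GFP arrays, so the size of its fall is uncertain. Its other probe was not above background on any array. TWIST1 and TWIST2 themselves were not above background.

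Of 12 other epithelial regulators, 4 were detected, 1 rose and 1 fell (50% called, median -0.16). EHF, an ETS factor of epithelia, read 8.48 and 8.32 on TARBP2 arrays, against 5.45 and 5.58 on GFP arrays. It was 7.39-fold higher, a log2 change of 2.88 ± 0.10 (adjusted p = 0.000208). KLF5, a Kruppel-like factor of epithelial growth, fell by 0.81 ± 0.08 (adjusted p = 0.0029). EHF was above background on all 4 arrays, whereas GRHL2 and OVOL1 were above it on none.

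Corepressors that SNAI and ZEB proteins recruit were mostly detected, in 14 of 16 cases, and 3 rose while 1 fell (28.6% called, median 0.05). The chromatin remodeller SMARCA4 rose by 0.52 ± 0.08 (adjusted p = 0.00999), the Polycomb subunit SUZ12 by 0.44 ± 0.08 (adjusted p = 0.0151) and the histone demethylase KDM1A by 0.37 ± 0.08 (adjusted p = 0.0183). The histone deacetylase HDAC1 fell by 0.32 ± 0.08 (adjusted p = 0.0291). The enzymes that set the stability of SNAI, TWIST and ZEB proteins had 10 of 14 members detected, with 2 higher and 2 lower (40% called, median 0.09). GSK3B, the kinase that marks SNAI1 for destruction, fell by 0.86 ± 0.07 (adjusted p = 0.00182), and FBXO45, a ubiquitin ligase subunit, by 0.32 ± 0.08 (adjusted p = 0.0301). BTRC, the ligase subunit that recognises SNAI1 so marked, rose by 0.44 ± 0.10 (adjusted p = 0.024), and the kinase PAK1 by 0.33 ± 0.08 (adjusted p = 0.029). The arrays measure RNA, so the amounts of the SNAI and ZEB proteins are not known from them.

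Epithelial genes that are repressed in EMT moved in both directions. Of 24 listed, 14 were detected, and 4 rose while 4 fell (57.1% called, median -0.08). MAL2, a protein of apical transport, read 8.83 and 8.79 on TARBP2 arrays, against 5.56 and 5.55 on GFP arrays, and was 9.56-fold higher (adjusted p = 8.35e-05). The tight junction gene CLDN7 read 8.28 and 8.30 on TARBP2 arrays, against 7.58 and 7.46 on GFP arrays, a log2 change of 0.77 ± 0.08 (adjusted p = 0.00335). KRT19, a keratin of simple epithelia, read 9.14 and 9.27 on TARBP2 arrays, against 10.41 and 10.48 on GFP arrays, a log2 change of -1.25 ± 0.09 (adjusted p = 0.00116). PRSS8, a membrane protease, was at least 1.47-fold higher, as it was not above background on either GFP array (adjusted p = 0.00429). An at-least fold sets the brighter group's mean against, on each array of the other group, the higher of the probe's own signal and the dimmest signal above background. Genes given an at-least fold met the detection filter only through the brighter group. Filter and test are then not independent, so their p-values and places in the counts carry that limit. CDH1, the gene of E-cadherin and the classic target of SNAI and ZEB repressors, is not among the 4 genes of smallest p in this list and was picked out after its values were seen. It read 4.78 and 4.68 on TARBP2 arrays, where it was not above background, against 5.31 and 5.15 on GFP arrays, at least 1.14-fold lower (adjusted p = 0.0148). DSP, which encodes the desmosome protein desmoplakin, had a probe with a log2 change of 0.38 (adjusted p = 0.0167) and another with -1.04 (adjusted p = 0.0027), so its direction is uncertain.

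SNAI and ZEB repressors bind the E-box letters CACCTG, whose reverse complement is CAGGTG. These letters were searched on both strands in the 250 bases before each transcription start in RefSeq (GRCh38.p14), where 17.5% of 35116 windows hold at least 1. Among the epithelial genes repressed in EMT, 9 of 16 windows of 12 genes hold them (56.2%). Among the members 2 of 11 windows of 5 genes do, both of ZEB1 (18.2%). The epithelial list has 24 genes, and those without a window, and so not searched, include CDH1, MAL2, KRT19 and PRSS8. Of its 8 genes with a match, CRB3, RAB25, OCLN and SPINT1 were not tested for RNA change, and TJP3 had no named probe. The share is thus not that of the genes whose changes are given above. A CLDN7 window is shown because it holds 4 matches, where 0.464% of all windows hold 3 or more, and because CLDN7 RNA was higher while SNAI2 RNA was higher too. It was thus picked with the RNA change known. The other CLDN7 window holds 0 matches. In the same list the CRB3 window holds 5, and no CRB3 probe was above background on any array. The members searched were TWIST2, ZEB1, ZEB2, VIM and FN1, and the ZEB1 windows are shown as the only ones among these with a match. Capitals mark the matches, and each sequence runs 5′ to 3′ on the gene's strand.
CLDN7 chr17:7262479-7262728, minus strand: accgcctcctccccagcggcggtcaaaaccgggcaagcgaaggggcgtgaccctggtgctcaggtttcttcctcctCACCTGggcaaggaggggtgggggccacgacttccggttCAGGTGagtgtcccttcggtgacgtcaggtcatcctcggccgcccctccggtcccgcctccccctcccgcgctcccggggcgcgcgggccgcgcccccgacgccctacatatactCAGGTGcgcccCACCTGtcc
ZEB1 chr10:31318966-31319215, plus strand: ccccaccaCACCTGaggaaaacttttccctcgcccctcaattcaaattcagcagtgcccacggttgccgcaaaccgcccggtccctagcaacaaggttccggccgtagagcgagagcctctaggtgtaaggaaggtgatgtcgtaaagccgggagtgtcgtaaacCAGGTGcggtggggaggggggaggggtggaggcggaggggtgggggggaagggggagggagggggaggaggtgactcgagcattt
ZEB1 chr10:31318167-31318416, plus strand: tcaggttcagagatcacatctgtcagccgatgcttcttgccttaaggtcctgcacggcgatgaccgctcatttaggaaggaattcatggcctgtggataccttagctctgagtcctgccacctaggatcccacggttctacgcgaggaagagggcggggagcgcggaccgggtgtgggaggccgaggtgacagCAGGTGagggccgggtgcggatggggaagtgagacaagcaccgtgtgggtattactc
The CLDN7 matches begin 174, 135, 20 and 9 bases before the start. In the ZEB1 windows they begin 242 and 85 bases before one start and 57 before the other. A match is a run of letters and not a binding site shown by these data, and binding was not measured.

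Mesenchymal effectors had 15 of 21 genes detected, with 4 higher and 3 lower (46.7% called, median 0.13). S100A4, a calcium-binding protein of motile cells, read 12.45 and 12.20 on TARBP2 arrays, against 9.94 and 10.07 on GFP arrays, and was 5-fold higher (adjusted p = 0.000522). The actin-binding gene CALD1 rose by 1.39 ± 0.08 (adjusted p = 0.000715) and the cadherin gene CDH11 by 1.25 ± 0.09 (adjusted p = 0.00111). FSCN1, which bundles actin in invasive protrusions, read 11.07 and 11.09 on TARBP2 arrays, against 12.63 and 12.71 on GFP arrays, and fell by 1.59 ± 0.08 (adjusted p = 0.00048). Like the members SNAI2, ZEB2 and VIM, genes of this list changed in both directions.

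Vimentin's relatives among the non-keratin intermediate filaments and their linkers had 6 of 12 genes detected, of which 3 fell and 3 did not pass (50% called, median -0.37). PLEC, the gene of plectin that ties vimentin to other structures, fell by 0.93 ± 0.08 (adjusted p = 0.00186). SYNM, a filament protein that assembles with vimentin, fell by 0.36 ± 0.09 (adjusted p = 0.0318). NEFL, a neurofilament gene, was at least 1.15-fold lower (adjusted p = 0.0423), and met the detection filter through the GFP arrays alone. These stand beside the VIM changes of -0.25 and -0.17.

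Receptors and assembly partners of fibronectin had 10 of 13 genes detected, with 4 higher and 3 lower (70% called, median 0.10). FBLN1, the matrix protein fibulin that binds fibronectin, read 6.78 and 6.73 on TARBP2 arrays, against 8.56 and 8.56 on GFP arrays, and fell by 1.80 ± 0.07 (adjusted p = 0.000323). ITGA5, the alpha subunit of the main fibronectin receptor, fell by 0.75 ± 0.07 (adjusted p = 0.00273). The crosslinking enzyme TGM2 rose by 0.90 ± 0.09 (adjusted p = 0.0025) and the integrin subunit ITGAV by 0.53 ± 0.08 (adjusted p = 0.00884). FN1 itself did not pass on any probe.

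Signals that induce EMT had 14 of 18 genes detected, with 3 higher and 5 lower (57.1% called, median 0.06). WNT5A, a secreted ligand, was not above background on TARBP2 arrays, at 4.72 and 4.51, against 6.21 and 6.17 on GFP arrays, at least 2.21-fold lower (adjusted p = 0.000968). JAG1, a Notch ligand, fell by 1.25 ± 0.10 (adjusted p = 0.00171). The TGF-beta coreceptor TGFBR3 fell by 0.65 ± 0.08 (adjusted p = 0.00449) and SMAD3, which carries the TGF-beta signal to the nucleus, by 0.60 ± 0.10 (adjusted p = 0.0116).

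**Figure D5:**
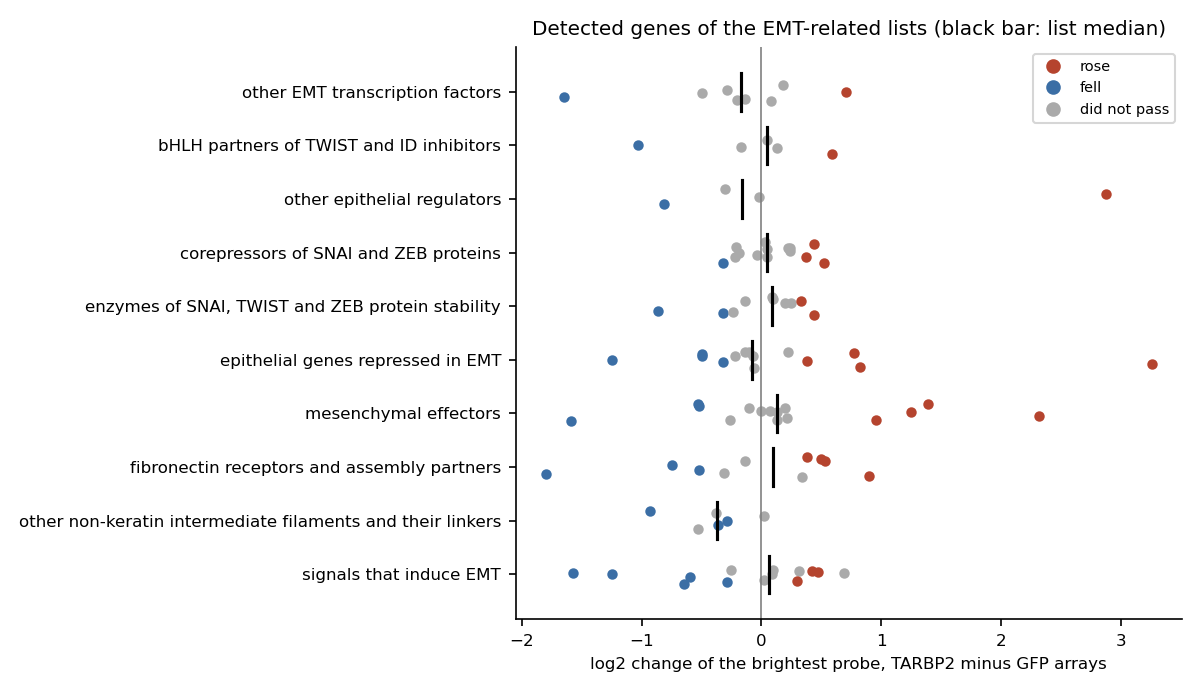
Log2 change (TARBP2 minus GFP) of each detected gene of the 10 pathway lists by its brightest probe, 1 list per line, coloured where a gene rose or fell and grey where it did not pass, with a black bar at the list's median. MAL2 and EHF lie farthest to the right, and FBLN1 and FOXQ1 are among those farthest to the left.

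Markers of other cell types were read beside these groups. The summed level of the 8 luminal epithelial markers with a named probe was 3008 and 3011 on TARBP2 arrays, against 3902 and 4046 on GFP arrays, with 2 of the genes detected on all 4 arrays. Of these markers KRT19, CDH1 and KRT18 passed and were lower, KRT18 by at least 1.06-fold (adjusted p = 0.0334). CDH1 and KRT18 met the detection filter through the GFP arrays alone. The KRT18 probe was near background there too, at 5.18 and 5.09, and a second KRT18 probe was not above background on any array. The 7 fibroblast markers summed to 414 and 436 on TARBP2 arrays, against 927 and 900 on GFP arrays, with 1 gene detected on all 4 arrays and 3 on none. DCN, a matrix proteoglycan gene of that list, fell by 2.29 ± 0.09 (adjusted p = 0.000272), while the other 2 fibroblast markers that passed rose. PDGFRB, a growth factor receptor, was at least 1.34-fold higher (adjusted p = 0.00615), and the proteoglycan gene LUM at least 1.25-fold higher (adjusted p = 0.00967). Both met the detection filter through the TARBP2 arrays alone. The leukocyte markers summed to 182 and 198 on TARBP2 arrays, against 193 and 180 on GFP arrays, with 0 genes detected on all 4 arrays and 4 on none. The endothelial markers summed to 111 and 110 on TARBP2 arrays, against 127 and 116 on GFP arrays, with 1 gene detected on all 4 arrays and 2 on none. Undetected probes add their background level to all these sums. The sums are linear, so bright probes weigh most, KRT8 and KRT19 among the luminal markers and DCN among the fibroblast markers. KRT8 did not pass (log2 change -0.10, adjusted p = 0.356), so the luminal difference lies mostly with KRT19 and the fibroblast difference with DCN. The part of other cell types in the changes of SNAI2, ZEB2 and VIM was not tested.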

How the data were processed

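The deposited raw intensities of 47323 probes on 4 arrays, linear and without background subtraction, and the authors' detection p-values beside them were used. A deposited table of quantile-normalized intensities served as an alternative, and the submitters' processing notes name lumi. The authors' final table, per the file headers, holds a log ratio for each of 39747 accessions and a class, either down or background. That deposited log ratio is a difference of inverse hyperbolic sine values, as described below, and no source used here gives a base. This transform shrinks the changes of dim probes, so deposited ratios and the log2 changes given here are on unlike scales.

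No table used here pairs probes with accessions. The deposited log ratio equals the TARBP2 mean minus the GFP mean after an inverse hyperbolic sine, scaled and shifted, of the intensities in the quantile-normalized table. Accessions were tied to a probe, or to the mean of a pair, where values matched within 1e-09, which held for 96.6% (33111 to 1 probe and 5303 to a pair). A pair can be wrong where an accession averages more than 2 probes, and SNAI2 and VIM were named through pairs. Symbols came from RefSeq (GRCh38.p14) and named 25599 probes of 18699 genes. Probe sequences were not used, so reads of related genes were not checked.

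Raw intensities were processed with neqc of limma 3.58.1 in R 4.3.3, which corrects background by normexp from the detection p-values, adds an offset of 16, brings arrays to the same quantiles and takes log2. Probes were tested where 2 or more of the 4 arrays had a detection p under 0.05, with lmFit and eBayes, 2-sided, with 2 residual and 2.81 prior degrees of freedom. Only 2 arrays per group limit the precision. Array correlations were 0.996 within groups and 0.968 between them. Same-numbered replicates did not deviate together (correlation 0.00616, 2 numbers), so no block was used. The fit was also run on simulated data with independent noise and few changed probes. That run cannot show how technical replicates or widespread changes affect the calls. Members and lists were chosen with earlier results of these data known. All 10 members are named with all their probes, and in each list the up to 4 genes of smallest p among called genes whose groups do not overlap. The miR-200 precursors were added after the files were seen.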

Additional observations from a re-analysis of the deposited data

How the results depend on the processing

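Both SNAI2 probes kept their direction and their call under every alternative run, at log2 changes between 0.73 and 0.96 (14 alternatives) for ILMN_1655740 and between 0.62 and 0.81 (15 alternatives) for ILMN_2082585. ZEB2 kept its direction, between -0.67 and -0.36, and passed in 12 of 15 alternatives. VIM ILMN_2058251 passed in 8 of 14 and VIM ILMN_1782538 in 2 of 15, and ZEB1 did not pass in any of 15, at adjusted p-values between 0.104 and 0.629. FN1 passed only with the neighbours' median taken off, on 2 of its 3 probes, where the spread among neighbours was left out.

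Leaving out 1 array in turn gave between 4595 and 5780 probes called, against 8917 with all arrays, between 2 and 2 member probes that rose, and between 0 and 1 that fell. No member fell without TARBP2 replicate 1, without TARBP2 replicate 2 or without GFP replicate 1, and 1 fell without GFP replicate 2. A group left with 1 array was assumed to vary like the other. With the replicate number as a block, 8067 probes were called, 2 members rose and 1 fell, as VIM ILMN_2058251 no longer passed (adjusted p = 0.087). It changed no other member's call. Without a detection filter 7534 of 47323 probes were called and 1 member fell. With 1 probe per gene, 1 member rose and 1 fell, as fewer probes were tested. With the neighbours' median removed, 4 member probes rose and 3 fell. That setting turned ZEB1 to -0.20 and FN1 ILMN_1778237 to 0.19, and this FN1 probe, which ranged from -0.44 to 0.22 with 1 array left out, also turned without TARBP2 replicate 1 (0.22) and without GFP replicate 1 (0.02). Beyond these construction effects the causes were not tested. Signal near background limits FN1, SNAI1, TWIST1, TWIST2, GRHL2 and OVOL1.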
